A study of Mus musculus with 6 samples.

Results

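The TNF receptor superfamily genes of regulatory T (Treg) cells were followed through RNA sequencing of *Junb*-deficient and control mouse Treg cells. The 10 genes were chosen by name from the 37305 genes of the expression table, 1 row each, for their known place in Treg cells. Earlier results of these data were known when they were chosen. Of these, 8 encode receptors (*Tnfrsf4*, *Tnfrsf9*, *Tnfrsf18*, *Cd27*, *Tnfrsf1a*, *Tnfrsf1b*, *Tnfrsf25* and *Fas*), while *Ltb* encodes a ligand of the family and *Traf1* an adaptor inside the cell. The study asked which genes of Treg cells depend on JunB, which forms AP-1 with partners such as BATF. The tested libraries came from Cd4Cre Junb fl/fl mice, in which a Cre recombinase driven by *Cd4* acts in T cells at large and not only in Treg cells, and the controls from Junb fl/fl mice, which carry the same floxed alleles without Cre. Both genotypes were on the C57BL/6 background, and the study's methods give an age of 6 to 12 weeks and sex-matched groups. CD4+CD25+ cells were sorted from the spleen and sequenced as mRNA, with 3 libraries per genotype and no stimulation in the labels of these samples. No source used here ties the libraries to separate mice, so p-values measure only how much these samples varied.

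Receptors of this family bind trimeric ligands of the TNF family, mostly on neighbouring cells. Their tails recruit TRAF adaptors that lead to NF-kB and support growth and survival, and a subset instead carries a death domain that can start apoptosis. Treg cells are known for high surface OX40, GITR, 4-1BB and TNFR2, through which costimulation supports their expansion and survival.

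Levels are in FPKM, fragments scaled to transcript length and to all mapped fragments, so that they can be set side by side between genes. The files hold no read counts, so the depth behind each value is unknown and no counting intervals are given. Summed FPKM ran from 496684 to 862049 per library, and 11437 to 11800 genes reached 1 FPKM. *Junb* itself was at 180.0, 49.1 and 37.8 FPKM in Junb-deficient libraries 1, 2 and 3, against 921, 298 and 256 FPKM in control libraries 1, 2 and 3, so the genotypes matched their labels. The library numbered 1 of each genotype stood apart. Its sample name alone lacks a lane suffix, and no label says what that stands for. In these 2 libraries the summed level of 10 myeloid and dendritic cell markers was 941 to 1058 FPKM, against 141 to 302 FPKM in the 4 libraries with the suffix, and that of 8 early activation genes was 1167 to 1787 FPKM, against 400.5 to 541 FPKM. The summed level of 7 Treg markers did not separate by suffix, at 640.0 to 713 FPKM without it and 621 to 733 FPKM with it, and no Treg or T cell marker was below 18.6 FPKM in any library. By genotype this sum was 621 to 694 FPKM in Junb-deficient and 696 to 733 FPKM in control libraries, but its parts differed in direction. *Ctla4* was at 153, 193 and 137 FPKM in Junb-deficient libraries 1, 2 and 3, against 266, 251 and 265 FPKM in controls 1, 2 and 3. Compared with the control of the same number, *Ikzf2* and *Nrp1* were also lower each time. *Il2ra*, *Ikzf4* and *Lrrc32* were higher each time, and *Foxp3* was lower in library 1 and higher in libraries 2 and 3. Of the 7 markers 3 passed the thresholds given below, against 4.56% of all genes. *Ctla4* was lower and *Ikzf4* and *Lrrc32* were higher in Junb-deficient libraries (log2 differences -0.70, 0.55 and 0.69, limma adjusted p = 0.834 for each). None of the markers of B, myeloid, CD8 or NK cells was at 0 in all libraries. In such bulk samples, fewer cells of a type and less RNA per cell cannot be told apart.

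All 10 genes were detected in all 6 libraries. *Ltb* was the most abundant with a mean of 404 FPKM over the libraries, and it was followed by *Tnfrsf4* at 312 FPKM, *Tnfrsf18* at 279 FPKM, *Cd27* at 206 FPKM and *Tnfrsf9* at 159 FPKM. *Tnfrsf1b* and *Traf1* lay close together at 102 and 99.3 FPKM, and *Tnfrsf25*, *Fas* and *Tnfrsf1a* ended the order at 53.1, 39.8 and 16.3 FPKM. Thus 7 of the 10 were in the highest decile of the 11781 genes tested, where *Ltb* ranked 190 and *Tnfrsf1a* 5188. Neighbours in this order had overlapping ranges, except that every *Traf1* value lay above every *Tnfrsf25* value. Some of these neighbours kept 1 order within every library. *Ltb* exceeded *Tnfrsf4*, *Tnfrsf18* exceeded *Cd27*, *Cd27* exceeded *Tnfrsf9*, *Traf1* exceeded *Tnfrsf25*, *Tnfrsf25* exceeded *Fas* and *Fas* exceeded *Tnfrsf1a* in 6 of 6 libraries, whereas *Tnfrsf4* exceeded *Tnfrsf18* in 4, *Tnfrsf9* exceeded *Tnfrsf1b* in 4 and *Tnfrsf1b* exceeded *Traf1* in 2. The 8 receptors carried 88.0 to 91.9% of the FPKM of all 28 receptor genes examined.

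**Figure D1:**
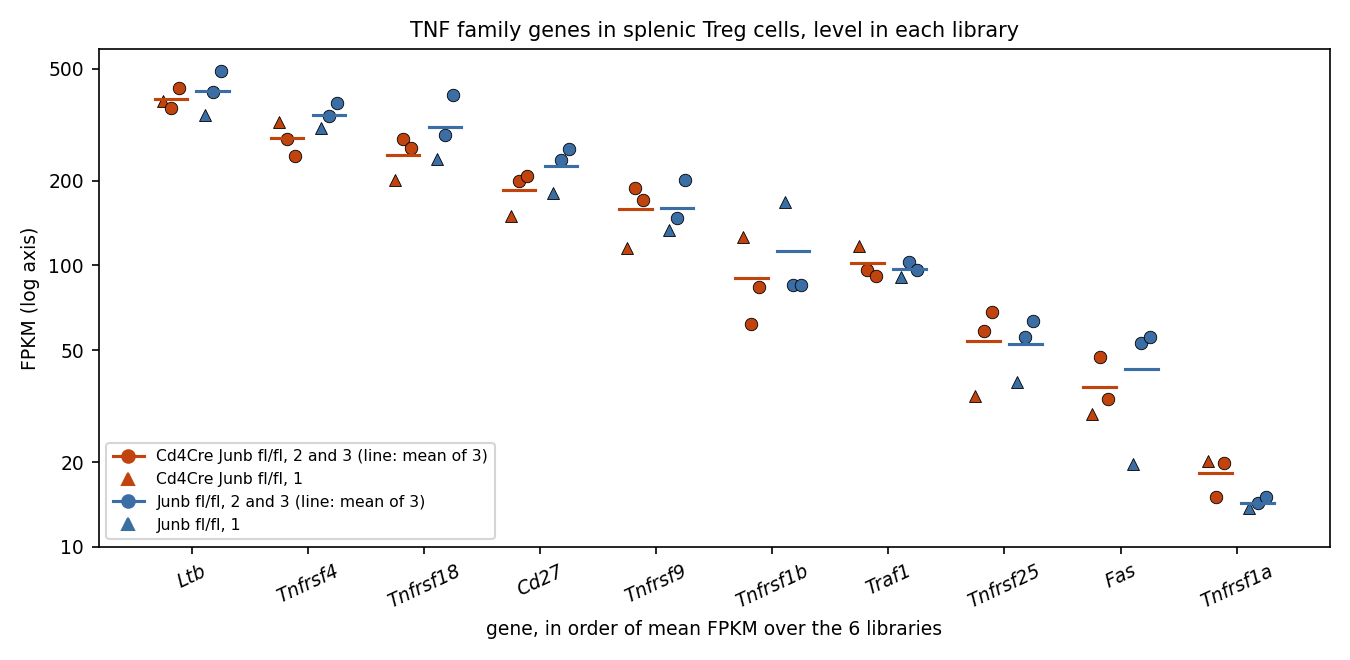
Level of each gene in FPKM (log axis) in each library, with Junb-deficient libraries left of controls, triangles for the libraries numbered 1, circles for those numbered 2 and 3, and a line at the mean of 3. The genotypes overlap for every gene, while the triangles lie lowest for Tnfrsf18, Cd27, Tnfrsf9, Tnfrsf25 and Fas and highest for Tnfrsf1b.

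To determine whether these genes depend on JunB, genotypes were compared with limma across 11781 genes with a mean of at least 1 FPKM. A gene was called past 2 limits, a p under 0.05 before any adjustment and a change beyond 0.5 on the log2 scale, which the study also uses. None of the 10 genes was called in either direction, and 0 had an unadjusted p under 0.05. Over all genes tested, 4.56% were called, 1.67% higher and 2.89% lower in Junb-deficient libraries. This excess of lower calls depended on the scaling, since 340 of the called genes were lower and 197 higher as deposited, 285 and 238 under median-ratio scaling and 262 and 262 under quantile scaling. Differences of the 10 genes ran from -0.30 to 0.32 on the log2 scale with a median of -0.09, against -0.05 over all genes tested, and their adjusted p ran from 0.834 to 0.996. At an adjusted p of 0.05 the percentage called over all genes was also 0, although 636 genes had an unadjusted p under 0.05. When libraries of the same number were compared with each other (the replicate block), 10.8% of all genes (3.58% higher and 7.20% lower) and still 0 of the 10 were called, and 0.00849% of all genes, which was *Junb* alone, had an adjusted p under 0.05. The genotypes overlapped for all 10, while 10.9% of all genes did not overlap (4.58% higher and 6.36% lower). An exact permutation test of 3 against 3 libraries cannot go below 0.1, and the lowest exact p among the 10 was 0.2.

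**Figure D2:**
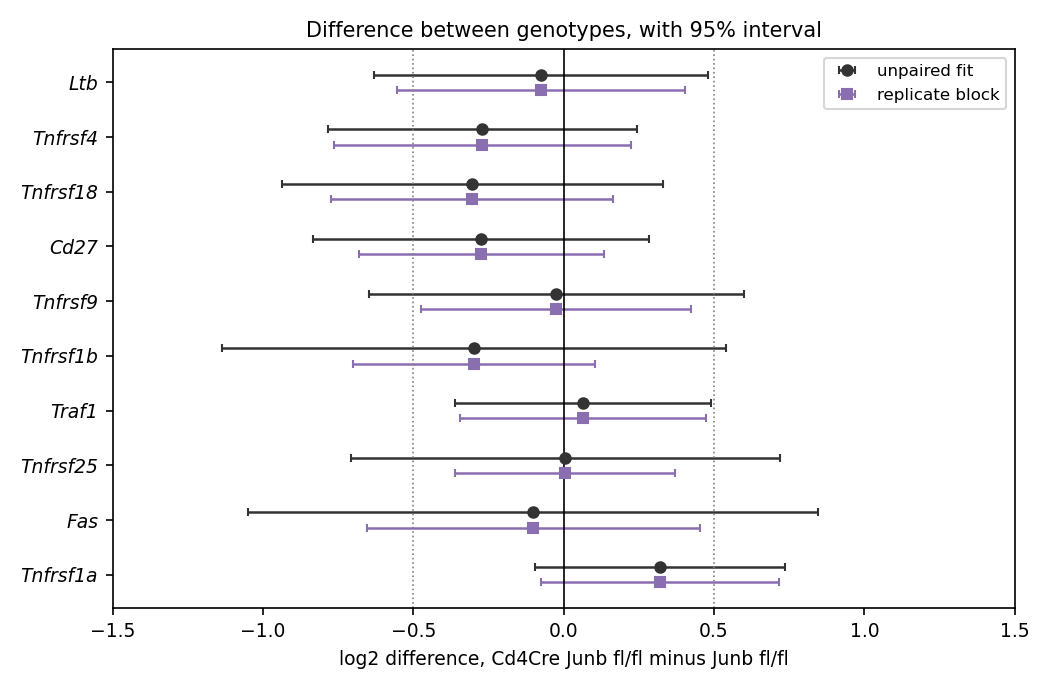
Log2 difference of Cd4Cre Junb fl/fl minus Junb fl/fl for each gene with its 95% interval, from the unpaired fit (black circles) and the fit within replicate numbers (purple squares), with dotted lines at a log2 difference of 0.5 in either direction. Every interval includes 0 in both fits, and the block narrows those of Tnfrsf1b, Tnfrsf25 and Fas most.

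The intervals set what these libraries could show. For 8 of the 10 genes the 95% interval lay wholly within a log2 difference of -1 to 1. It reached down to -1.14 for *Tnfrsf1b* and to -1.05 for *Fas*, and up to 0.85 for *Fas*.

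The costimulatory receptors that signal through TRAF adaptors are described first. *Tnfrsf4*, which encodes OX40, was at 322, 283 and 246 FPKM in Junb-deficient libraries 1, 2 and 3, against 308, 339 and 377 FPKM in controls 1, 2 and 3. Junb-deficient libraries 2 and 3 lay below all controls, but Junb-deficient library 1 lay between them. The means were 284 ± 38.4 in Junb-deficient and 341 ± 35.0 FPKM in control libraries (SD, n = 3), with a log2 difference of -0.27 (SE 0.22, 95% interval -0.78 to 0.24, limma adjusted p = 0.848). *Tnfrsf18*, which encodes GITR, was at 201, 281 and 262 FPKM in Junb-deficient libraries, against 239, 289.8 and 403 FPKM in controls. The Junb-deficient library was the lower within each number, at 84.3, 97.0 and 64.9% of its control, yet the groups overlapped broadly. Its means were 248 ± 41.7 in Junb-deficient and 311 ± 84.2 FPKM in control libraries, a log2 difference of -0.30 (SE 0.27, limma adjusted p = 0.854).

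*Cd27*, the receptor of CD70, gave the most even difference. It was at 149.6, 200.2 and 208 FPKM in Junb-deficient libraries, against 180.4, 237 and 259 FPKM in controls. Each Junb-deficient library held 82.9, 84.6 or 80.3% of the level of the control with its number. The means were 186 ± 31.6 in Junb-deficient and 225 ± 40.3 FPKM in control libraries, with a log2 difference of -0.27 (SE 0.24, 95% interval -0.83 to 0.28, limma adjusted p = 0.851). Comparing within replicate numbers cannot change the log2 difference itself in this balanced layout. It gave a narrower interval of -0.68 to 0.13, which still included 0. *Tnfrsf9*, which encodes 4-1BB, a receptor induced on activated T cells, was at 116, 189 and 171 FPKM in Junb-deficient libraries, against 134, 147 and 201 FPKM in controls. Here the means nearly coincided at 159 ± 38.3 in Junb-deficient and 160.4 ± 35.6 FPKM in control libraries, with a log2 difference of -0.02 (SE 0.27, 95% interval -0.65 to 0.60, limma adjusted p = 0.988).

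*Tnfrsf9* has 2 annotated starts about which the expression table, which holds 1 value per gene, says nothing. Upstream of the second lies the only promoter among the 10 genes that holds both an AP-1 site and a kappa-B-like site, which is why it is shown. The 250 bases before that start are chr4:150927749-150927998 on the plus strand (RefSeq promoters, GRCm38.p6), with the matches in capitals:
Tnfrsf9: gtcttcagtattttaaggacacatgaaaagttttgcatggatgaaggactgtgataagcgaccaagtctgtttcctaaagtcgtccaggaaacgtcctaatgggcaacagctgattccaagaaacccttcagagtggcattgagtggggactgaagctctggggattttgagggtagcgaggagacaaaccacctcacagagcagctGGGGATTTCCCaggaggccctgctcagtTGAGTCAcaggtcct
The AP-1 site (TGANTCA) lies from -15 to -9, counted from -1 at the last base before the start. The kappa-B-like pattern, which begins with GGG, has any 2 letters, TT, any 1 letter and CC, matches at -43 to -34 and, overlapping by all but 1 base, at -42 to -33.

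The receptors of TNF itself differed in level and in sign. *Tnfrsf1b* encodes TNFR2, which has no death domain and is bound best by membrane TNF, and *Tnfrsf1a* encodes TNFR1, which has one. *Tnfrsf1b* was at 126, 61.7 and 83.7 FPKM in Junb-deficient libraries, against 167, 85.6 and 85.0 FPKM in controls. The library numbered 1 was the highest of each genotype, and the Junb-deficient library was the lower within each number, by log2 -0.41, -0.47 and -0.02. The log2 difference was -0.30 (SE 0.36, 95% interval -1.14 to 0.54, limma adjusted p = 0.879), and without control library 1 it turned to 0.02. *Tnfrsf1a* was at 20.2, 15.0 and 19.8 FPKM in Junb-deficient libraries, against 13.8, 14.3 and 15.0 FPKM in controls. Junb-deficient libraries 1 and 3 lay above all controls and library 2 lay within them. Its means were 18.3 ± 2.89 in Junb-deficient and 14.4 ± 0.61 FPKM in control libraries, with a log2 difference of 0.32 (SE 0.18, 95% interval -0.10 to 0.73, limma adjusted p = 0.834).

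The ratio of *Tnfrsf1b* to *Tnfrsf1a* was formed after these values were seen. It was 6.24, 4.12 and 4.23 in Junb-deficient libraries, against 12.1, 5.99 and 5.67 in controls. The ratio was lower in the Junb-deficient library within all 3 numbers, but Junb-deficient library 1 lay above controls 2 and 3. The sign within numbers had to follow, since *Tnfrsf1b* was lower and *Tnfrsf1a* higher within each number, so it adds nothing to them. The means were 4.86 ± 1.19 in Junb-deficient and 7.93 ± 3.65 in control libraries (SD, n = 3 per genotype), with a 2-sided exact permutation p = 0.3.

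Signs within numbers were counted for all 10 genes. *Tnfrsf18*, *Tnfrsf1b* and *Cd27* were lower in the Junb-deficient library within all 3 numbers, as were 22.3% of all genes tested, and *Tnfrsf1a* was higher within all 3, as were 15.7%.

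Among the other receptors with a death domain, *Tnfrsf25* encodes DR3, the receptor of TL1A. It was at 34.4, 58.4 and 68.3 FPKM in Junb-deficient libraries, against 38.5, 55.5 and 63.7 FPKM in controls. The library numbered 1 was the lowest of each genotype, and the means of 53.7 ± 17.4 in Junb-deficient and 52.6 ± 12.8 FPKM in control libraries almost coincided (log2 difference 0.01, SE 0.30, limma adjusted p = 0.996). *Fas*, the receptor of Fas ligand that can start apoptosis of activated lymphocytes, was at 29.7, 47.3 and 33.6 FPKM in Junb-deficient libraries, against 19.7, 53.1 and 55.6 FPKM in controls. All 3 Junb-deficient values lay inside the range of the controls, which was itself 2.83-fold wide. Within numbers the log2 ratio was 0.57, -0.17 and -0.71, so the sign differed between numbers. The log2 difference was -0.10 (SE 0.40, limma adjusted p = 0.968). Without control library 1, *Fas* passed the study's thresholds as lower in Junb-deficient libraries (log2 difference -0.58, limma adjusted p = 0.202), the only 1 of the 10 to do so, while 13.1% of all genes were called lower in the same fit.

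*Fas* is the other gene of the 10 with an AP-1 site in a promoter, at -211 to -205. The 250 bases before its start are chr19:34290409-34290658 on the plus strand (RefSeq, GRCm38.p6), with the site in capitals:
Fas: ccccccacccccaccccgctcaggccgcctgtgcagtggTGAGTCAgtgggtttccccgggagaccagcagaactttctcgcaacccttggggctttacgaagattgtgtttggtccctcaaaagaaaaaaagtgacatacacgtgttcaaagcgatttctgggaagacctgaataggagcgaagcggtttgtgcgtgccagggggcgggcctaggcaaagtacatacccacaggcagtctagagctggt
Both strands of 12 promoters of the 10 genes, from 250 bases before to 50 after each start, were searched. Of 32851 mouse promoters of this length, 7.81% hold the AP-1 site and 4.79% the kappa-B-like pattern. The AP-1 site with GAAA or TTTC within 4 bases, the kind of element that AP-1 shares with IRF4, was in 0.983% of all promoters and in 0 of the 12. *Tnfrsf25* and *Ltb* hold 1 kappa-B-like match each, and neither motif was in the promoters of *Tnfrsf4*, *Tnfrsf18*, *Cd27*, *Tnfrsf1a*, *Tnfrsf1b* and *Traf1*. A match is only a run of letters. None of the 10 genes was called between the genotypes in the unpaired fit, with or without a match, so the calls say nothing about these sites.

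*Ltb*, which encodes lymphotoxin beta, the membrane anchor of the lymphotoxin heterotrimer on lymphocytes, was at 384, 364 and 427 FPKM in Junb-deficient libraries, against 343, 414 and 491 FPKM in controls. The Junb-deficient values lay inside the range of the controls, and the means were 392 ± 32.0 in Junb-deficient and 416 ± 73.8 FPKM in control libraries (log2 difference -0.08, SE 0.24, limma adjusted p = 0.955). Its kappa-B-like match, on the minus strand at -87 to -78, is in capitals in the 250 bases before its start, chr17:35194257-35194506 on the plus strand (RefSeq, GRCm38.p6), shown because *Ltb* had the highest level of the 10:
Ltb: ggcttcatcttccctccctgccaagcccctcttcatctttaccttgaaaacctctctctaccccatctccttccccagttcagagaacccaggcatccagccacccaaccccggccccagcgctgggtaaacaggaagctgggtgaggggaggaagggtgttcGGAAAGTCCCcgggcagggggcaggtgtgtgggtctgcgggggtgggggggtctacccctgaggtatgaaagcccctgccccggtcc
*Traf1*, an adaptor that joins TRAF2 at receptors such as 4-1BB, was the steadiest of the 10 with a 1.29-fold range over the libraries. It was at 117, 96.1 and 91.6 FPKM in Junb-deficient libraries, against 90.9, 103 and 96.6 FPKM in controls. Junb-deficient library 1 lay above all controls and the other two did not, with a log2 difference of 0.06 (SE 0.18, 95% interval -0.36 to 0.49, limma adjusted p = 0.953).

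The differences were also set beside those of other genes at the same level. Among all 429 genes of 150 to 1000 FPKM the median log2 difference was -0.28, and among the 5 genes of the family in this range it was -0.27. In the range of 50 to 150 FPKM the medians were 0.01 for 3 genes of the family and -0.17 for all 1324, and from 10 to 50 FPKM they were 0.11 for 2 and -0.04 for all 5071. These ranges were chosen after the data were seen. The values of *Tnfrsf4*, *Tnfrsf18* and *Cd27* (-0.27, -0.30 and -0.27) were near the median at their level, and under quantile scaling they were 0.013, -0.036 and -0.025. *Tnfrsf9* and *Ltb*, the others of the 5, lay above that median at -0.02 and -0.08, and each was at 0.23 under quantile scaling.

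The same libraries were next compared by the lane suffix of the sample name, 2 libraries without it against 4 with it, with genotype as a term in limma. In this comparison 3 of the 10 genes were called, against 30.0% of all genes tested, and all 3 also had an adjusted p under 0.05, as did 20.5% of all genes. *Tnfrsf1b* averaged 147 FPKM in the libraries without the suffix (126 in the Junb-deficient and 167 in the control one), against 79.0 ± 11.5 FPKM in the 4 with it (61.7 to 85.6). The sets did not overlap, and the log2 difference was 0.88 (SE 0.17, limma adjusted p = 0.0122). *Tnfrsf25* averaged 36.5 FPKM without the suffix, against 61.5 ± 5.67 FPKM with it (55.5 to 68.3), a log2 difference of -0.74 (SE 0.15, limma adjusted p = 0.0164). *Fas* averaged 24.7 FPKM without the suffix, against 47.4 ± 9.86 FPKM with it (33.6 to 55.6), a log2 difference of -0.92 (SE 0.25, limma adjusted p = 0.0354), but this was no longer called without control library 1 (-0.41). Thus *Tnfrsf1b* was higher and *Tnfrsf25* and *Fas* were lower in the libraries without the suffix, in both genotypes. Receptors with a death domain did not move as a group, since *Tnfrsf1a* was at 0.07 and *Tnfrsf10b*, a TRAIL receptor, at 1.51 (limma adjusted p = 0.00429), higher without the suffix.

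*Tnfrsf9*, *Tnfrsf18* and *Cd27* were also lower in both libraries without the suffix than in all 4 with it, with log2 differences of -0.50, -0.47 and -0.45 that did not pass the limit of 0.5 (limma adjusted p = 0.0899, 0.110 and 0.0714). Altogether 6 of the 10 genes separated completely by suffix, as did 42.2% of all genes, and the median log2 difference was -0.33 for the 10 and -0.04 for all genes. *Tnfrsf4*, *Tnfrsf1a*, *Ltb* and *Traf1* had overlapping values and log2 differences of 0.04, 0.07, -0.22 and 0.09. The myeloid markers moved with this comparison, since 8 of the 8 tested were called higher without the suffix, as did 6 of 8 early activation genes and 5 of 6 B cell markers. The summed B cell markers were 31.4 to 63.7 FPKM without the suffix, against 24.8 to 31.0 FPKM with it. The part of these cells or of activation in the values of *Tnfrsf1b*, *Tnfrsf25* and *Fas* was not tested.

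**Figure D3:**
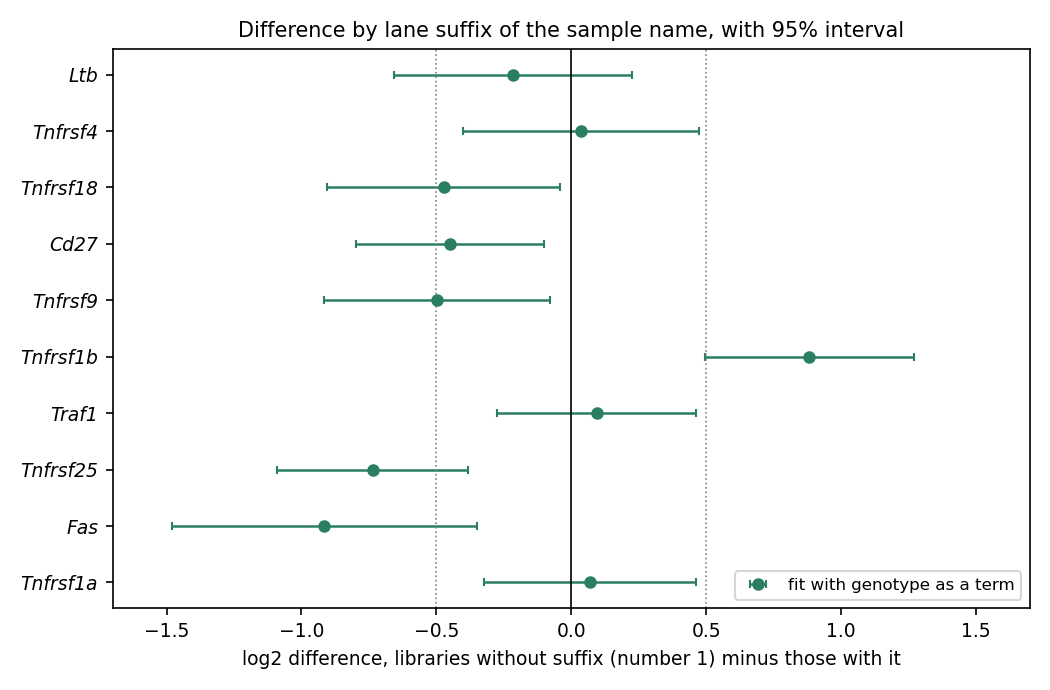
Log2 difference of the 2 libraries without a lane suffix minus the 4 with it for each gene, with its 95% interval from a fit with genotype as a term and dotted lines at a log2 difference of 0.5 in either direction. Tnfrsf1b lies at 0.88, Tnfrsf25 at -0.74 and Fas at -0.92, and the intervals of Tnfrsf4, Tnfrsf1a, Ltb and Traf1 include 0.

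The genes also differed in how they varied together over the 6 libraries. *Tnfrsf18* and *Cd27* had the most alike profiles (Pearson r = 0.93 on the log2 scale), followed by *Tnfrsf9* with *Tnfrsf25* (0.89), *Tnfrsf9* with *Tnfrsf18* (0.85) and *Tnfrsf25* with *Cd27* (0.82). *Tnfrsf1b* ran against *Fas* (-0.84) and *Tnfrsf25* (-0.81). *Tnfrsf4* and *Tnfrsf18* are neighbours on chromosome 4, 9551 bases apart with no coding gene between them, but correlated by only 0.45. All these values share the 6 libraries and the split by suffix and are given as a description.

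**Figure D4:**
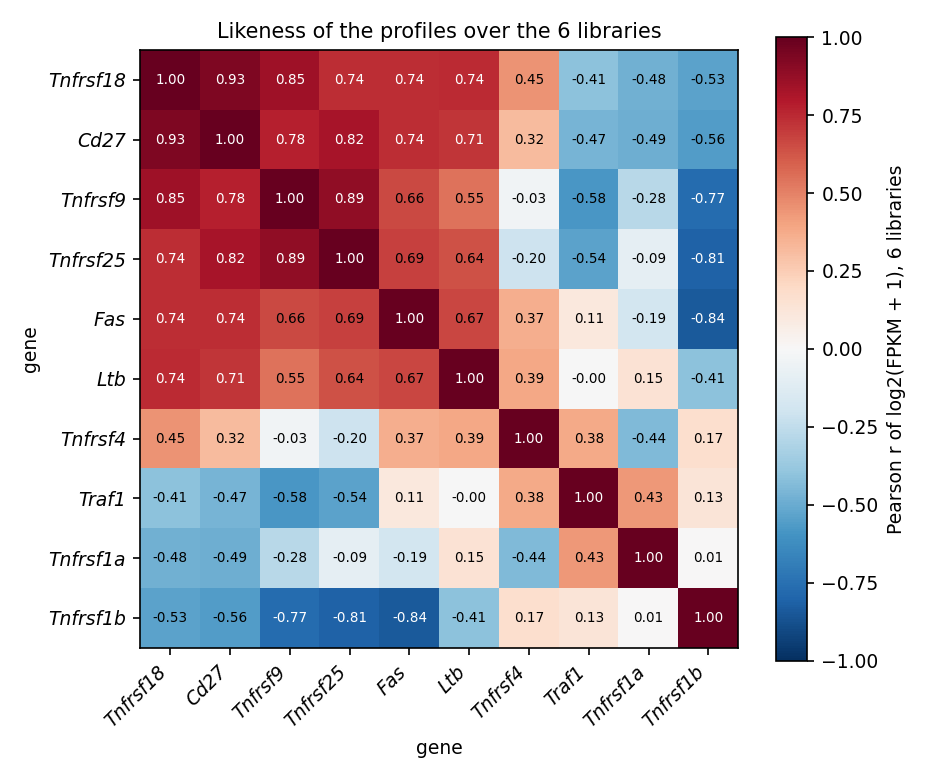
Pearson correlation of log2(FPKM + 1) over the 6 libraries for each pair of the 10 genes, from -1 (blue) to 1 (red). Tnfrsf18, Cd27, Tnfrsf9, Tnfrsf25, Fas and Ltb form a red block with values such as 0.93 and 0.89, and Tnfrsf1b is blue against Tnfrsf25 and Fas, at -0.81 and -0.84.

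Among 9987 named genes, the profile most like that of *Cd27* was *Clic1* (r = 0.998 over 6 libraries), at 136, 205 and 218 FPKM in Junb-deficient libraries, against 185, 259 and 302 FPKM in controls, and 333 genes correlated with *Cd27* above 0.95. For *Tnfrsf18* it was the selenoprotein gene *Sepw1* (r = 0.998), with 171 genes above 0.95. For *Tnfrsf1b* the closest were *Cdv3* (r = 0.996) and *Irf8* (r = 0.995), a factor of myeloid and B cells, at 29.0, 7.25 and 12.8 FPKM in Junb-deficient libraries, against 60.8, 12.3 and 13.7 FPKM in controls. *Fas* was closest to *Slc35b3* (0.998), *Tnfrsf9* to *Acot8* (0.992), *Tnfrsf25* to *Serpinb9* (0.993), *Tnfrsf4* to *Gtf2e2* (0.987), *Ltb* to *Vps72* (0.992), *Tnfrsf1a* to *Boll* (0.987) and *Traf1* to *Wdr48* (0.985). With so few libraries many genes reach such values.

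In the genome 5 of the 10 genes lie on chromosome 4 (mm9, GENCODE M1). These are *Tnfrsf1b* (chr4:144803366-144836773, minus strand), *Tnfrsf9* (chr4:150288671-150320211), *Tnfrsf25* (chr4:151490043-151494228), *Tnfrsf4* (chr4:155387952-155390721) and *Tnfrsf18* (chr4:155400273-155403004), the last 4 on the plus strand. *Cd27* (chr6:125182640-125187028, minus strand) and *Tnfrsf1a* (chr6:125299380-125312502, plus strand) lie on either side of *Ltbr*. *Ltb* (chr17:35331384-35333265, plus strand) starts the lymphotoxin cluster, 3060 bases from *Tnf*. *Fas* (chr19:34365149-34402260, plus strand) and *Traf1* (chr2:34797270-34817292, minus strand) stand alone. The noncoding gene *Gm16008* is antisense to *Tnfrsf18* and shares 414 exon bases with it. It averaged 2.81 FPKM, and since the counting is not stated to use strand, their reads cannot be told apart. FPKM per gene also do not resolve soluble or shortened isoforms of the receptors.

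To place the 10 genes in their pathway, 20 other receptors, 17 ligands, 20 TRAFs, adaptors and death signalling genes and 15 NF-kB genes were examined in the genotype comparison. Of the 20 other receptors 10 reached 1 FPKM and 0 were called, with a median log2 difference of 0.25. The highest were *Tnfrsf13b*, which encodes TACI, at 33.3, 43.7 and 48.0 FPKM in Junb-deficient libraries, against 40.8, 43.7 and 39.7 FPKM in controls, and *Tnfrsf14*, which encodes HVEM, at 22.5, 59.2 and 33.7 FPKM, against 30.1, 23.3 and 35.3 FPKM in controls. *Tnfrsf11b*, the soluble decoy receptor osteoprotegerin, was listed at 0 in all 6 libraries. Of the 17 ligands 10 were tested and 0 called, with a median of 0.21. *Tnfsf4*, the OX40 ligand, had the largest log2 difference of them, at 4.68, 1.69 and 2.29 FPKM in Junb-deficient libraries, against 1.96, 0.607 and 0.933 FPKM in controls. Its value was the higher within each number, with a log2 difference of 0.82 (SE 0.38, limma adjusted p = 0.834). Within replicate numbers it passed the study's thresholds (limma adjusted p = 0.252). The myeloid markers summed to 1058, 302 and 270 FPKM in Junb-deficient libraries 1, 2 and 3, against 941, 149 and 141 FPKM in controls 1, 2 and 3, thus higher within each number as well. Most of this sum was *Cd74* and *H2-Aa*, genes of antigen presentation, which were higher in the Junb-deficient library within each number. *Lyz2*, a lysozyme of myeloid cells, was lower within each number, at 17.1, 0.947 and 2.43 FPKM in Junb-deficient libraries, against 28.9, 1.27 and 3.73 FPKM in controls. Of the other myeloid markers, *Xcr1* was higher and *Cd14* lower within each number, while *Csf1r*, *Itgam*, *Itgax*, *Fcgr3* and *Flt3* differed in sign between numbers. The part of such cells in *Tnfsf4* was not tested. The ligands of GITR and CD27, *Tnfsf18* and *Cd70*, were below the level tested, with means of 0.0842 and 0.698 FPKM in Junb-deficient and 0.0161 and 0.545 FPKM in control libraries.

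Of 20 adaptors, all tested, 1 was called lower and 0 higher, against 2.89% and 1.67% of all genes, with a median log2 difference of 0.01. *Cflar*, which encodes c-FLIP, an inhibitor of caspase-8 at death receptors, was at 32.9, 41.5 and 30.8 FPKM in Junb-deficient libraries, against 42.7, 51.9 and 55.6 FPKM in controls. All 3 Junb-deficient values lay below all controls, as they did for 6.36% of all genes tested. The log2 difference was -0.50 (SE 0.19, limma adjusted p = 0.834, and 0.275 within replicate numbers). The call was lost under median-ratio scaling (-0.47) and quantile scaling (-0.38) and without any 1 of Junb-deficient libraries 1 and 3 and controls 2 and 3 (-0.47 to -0.42). *Casp8*, its target, was at 47.2, 69.6 and 72.6 FPKM in Junb-deficient libraries, against 39.4, 116 and 95.5 FPKM in controls, with overlapping groups (log2 difference -0.29, limma adjusted p = 0.897). *Birc3*, which encodes the ubiquitin ligase cIAP2 at TRAF complexes, and *Tank*, a TRAF-binding regulator, were the other most abundant, with means of 96.4 and 68.9 FPKM in Junb-deficient and 71.6 and 90.0 FPKM in control libraries. Within replicate numbers *Map3k14*, the NF-kB inducing kinase of the noncanonical pathway, was called higher (log2 difference 0.53, limma adjusted p = 0.295), while it was not in the unpaired fit.

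All 15 NF-kB subunits and feedback genes were tested and 0 called, with a median log2 difference of 0.23. *Nfkbia*, the feedback inhibitor IkB alpha, was the highest, at 560, 295 and 281 FPKM in Junb-deficient libraries, against 509, 322 and 302 FPKM in controls. *Rel*, the NF-kB subunit c-Rel that Treg development needs, was at 101, 18.9 and 21.3 FPKM in Junb-deficient libraries, against 71.0, 9.62 and 9.46 FPKM in controls. The Junb-deficient library was the higher within each number, but the difference between the libraries numbered 1 and the rest was larger than that between genotypes (log2 difference 0.83, SE 0.89, limma adjusted p = 0.867). Within replicate numbers *Rel* was called higher (limma adjusted p = 0.171). By lane suffix 11 of the 15 NF-kB genes were called higher and 0 lower in the libraries without it, against 13.0% of all genes higher and 17.0% lower. *Tnfaip3*, which encodes the feedback inhibitor A20, was at 585 and 489 FPKM in the libraries without the suffix and at 72.5 to 101 FPKM in those with it (log2 difference 2.68), and *Rel* had a log2 difference of 2.53. By the same comparison 4 other receptors were called higher and 1 lower, 1 ligand higher and 4 lower, and 5 adaptors higher and 1 lower. The NF-kB genes *Nfkb1*, *Tnip2*, *Otud7b* and *Cyld* were not called (0.46, -0.02, 0.43 and 0.22). Of the 10 genes, *Tnfrsf1b* was called in the same direction as the 11 NF-kB genes, and *Tnfrsf25* and *Fas* in the other (-0.74 and -0.92).

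**Figure D5:**
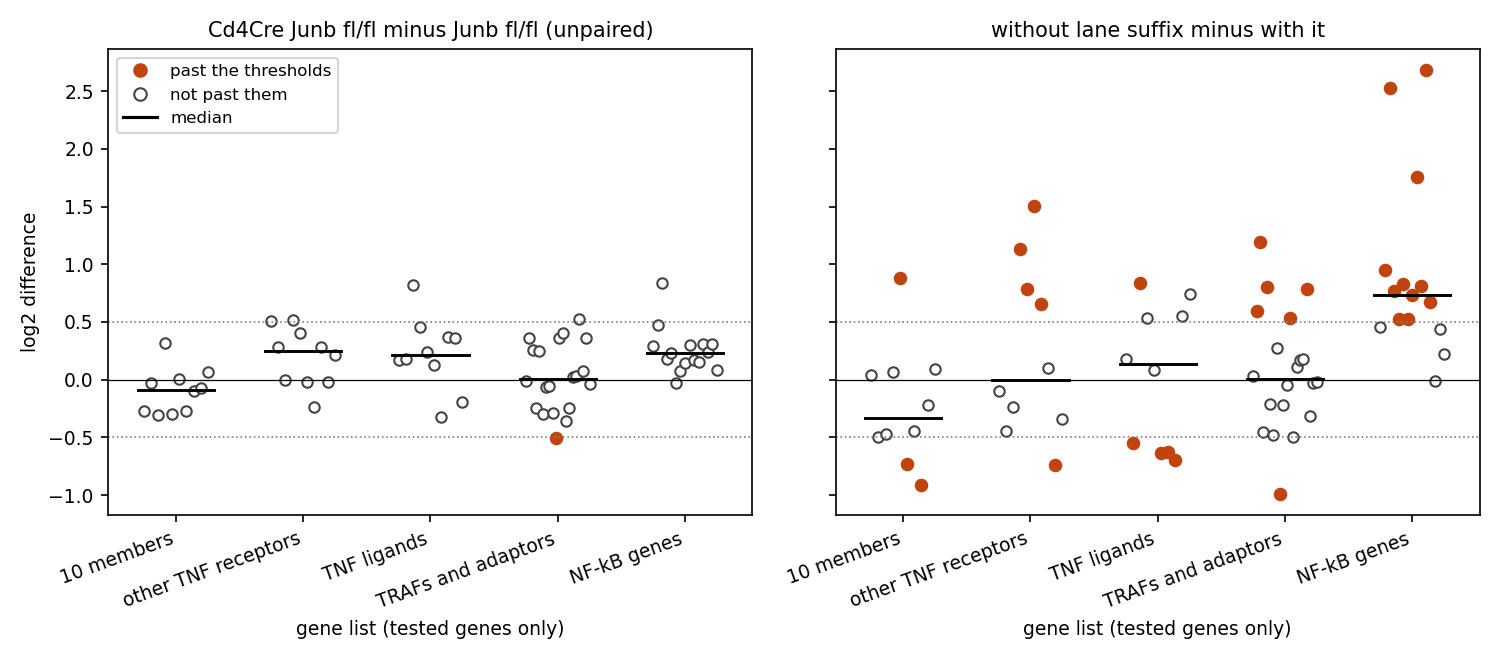
Log2 difference of each tested gene in 5 lists, for Cd4Cre Junb fl/fl minus Junb fl/fl (left) and for libraries without a lane suffix minus those with it (right), with filled points past the thresholds of the study, open points not past them and a bar at each list's median. By genotype 1 gene, Cflar, is filled, and by suffix 11 of 15 NF-kB genes are filled, all above 0.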

How the data were processed

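Libraries from sorted splenic CD4+CD25+ cells were made with a stranded mRNA kit and sequenced by the authors, who deposited FPKM per gene. The submitters' processing notes name TopHat2 2.2.1, Cufflinks and the build mm9. Any further scaling between libraries and the treatment of strand and of reads with several matches are not given in the sources used here. The 2 samples with no number in their names were matched to the columns numbered 1 by elimination. All 37305 gene identifiers were found in GENCODE M1, and 0 sample columns were left unused.

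Genes with a mean of at least 1 FPKM (11781) were tested in limma 3.58.1 (R 4.3.3) after taking log2(FPKM + 1). The prior variance followed a trend on the mean, tests were 2-sided, and p-values were adjusted by Benjamini-Hochberg over all of them. Differences are Cd4Cre Junb fl/fl minus Junb fl/fl, or without minus with the lane suffix, on this scale, which understates changes of low genes. The thresholds are those the study states for its RNA sequencing. Its methods name unpaired tests in general, not for these data. Replicate numbers were taken to pair the libraries, since deviations from the genotype mean correlated by 0.57, 0.42 and 0.24 across 11781 genes within numbers 1, 2 and 3, all over 0.1. Junb-deficient library 2 also correlated by 0.41 with control 3, and Junb-deficient library 3 by 0.13 with control 2, so numbers 2 and 3 were not clearly told apart. The genes named are the 10 members, *Junb*, the genes past the thresholds and the most abundant of each list, and the closest profiles. *Tnfsf4*, *Tnfsf18*, *Cd70*, *Tnfrsf10b*, *Rel*, *Map3k14*, the NF-kB genes not called and single markers were added after their values were seen. The 10 genes, lists, tests and motifs were chosen with earlier results of these data known. The fit was tested on simulated data. Alternatives were a pseudocount of 0.1, no filter, a minimum of 5 FPKM, quantile and median-ratio scaling, no trend, protein-coding genes alone, the replicate block, the lane suffix as a term, leaving out each library or both numbered 1, and, added after seeing the data, an exon length correction per library (loess), alone and with the block. Tables and figures used Python 3.11.15, scipy 1.17.1, numpy 2.4.6, matplotlib 3.10.9 and pandas 2.3.3. Promoters are RefSeq sequences on GRCm38.p6, and all 10 genes matched by symbol.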

Additional observations from a re-analysis of the deposited data

How the results depend on the processing

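Of 180 recomputed genotype differences of the 10 genes, 155 kept their sign and their side of the thresholds, 24 changed sign and 1, *Fas* without control library 1, became called. No filter, a minimum of 5 FPKM, no trend, protein-coding genes alone, the block and the suffix term changed the spread and not the difference. Under these neither sign nor call could change, since no difference was beyond 0.5, and they are among the 155. Under quantile scaling the log2 difference turned positive for *Tnfrsf4* (0.013), *Tnfrsf9* (0.23), *Fas* (0.023) and *Ltb* (0.23), and under median-ratio scaling for *Tnfrsf9* (0.015). With the exon length correction, alone and with the replicate block, it was 0.075 for *Tnfrsf9*, 0.077 for *Fas* and 0.12 for *Ltb*. Without both libraries numbered 1 it was 0.066 for *Tnfrsf9* and -0.088 for *Traf1*. Leaving out 1 library gave -0.17 to 0.19 for *Tnfrsf9*, -0.57 to 0.023 for *Tnfrsf1b*, -0.20 to 0.29 for *Tnfrsf25*, -0.58 to 0.15 for *Fas*, -0.21 to 0.051 for *Ltb* and -0.044 to 0.13 for *Traf1*. *Tnfrsf18*, *Tnfrsf1a* and *Cd27* kept their sign under every alternative run, but not their size. With 1 library left out *Tnfrsf18* was -0.48 to -0.099, *Cd27* -0.43 to -0.13, *Tnfrsf1a* 0.25 to 0.45 and *Tnfrsf4* -0.37 to -0.17. The length correction gave -0.11, -0.14 and -0.061 for *Tnfrsf18*, *Cd27* and *Tnfrsf4*, and -0.28, 0.15 and 0.037 for *Tnfrsf1b*, *Tnfrsf25* and *Traf1*. For *Tnfrsf1a* it gave 0.43, which was not called, with an unadjusted limma p of 0.0298, and 0.0223 with the block (adjusted p = 0.918 and 0.389). The count of the 10 genes called lower was 0 to 1 with 1 library left out.

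The replicate block raised the counts over all genes to 422 higher and 848 lower, from 197 and 340 in the unpaired fit, and changed no call among the 10 genes. A term for the lane suffix gave 415 and 840, leaving out both libraries numbered 1 gave 780 and 1528, a mean FPKM of at least 5 gave 131 and 246, and the exon length correction with the block gave 407 and 469. The share of calls that were lower, 63.3% in the unpaired fit, was 53.1% under the length correction, 54.5% under median-ratio scaling and 50% under quantile scaling. With 1 library left out the counts were 95 to 788 higher and 204 to 1532 lower, with the highest of each without control library 1. Other pathway genes tested in the unpaired fit were 10 receptors, 10 ligands, 20 adaptors and 15 NF-kB genes. Of the pathway genes 0 were called higher in that fit, against 1.67% of all genes, and 3 under the block, against 3.58%. With the suffix term 3 were higher (415 of 11781 over all genes), and without both libraries numbered 1 also 3 (780 of 11572). The length correction gave 1 (203 of 11781), and 4 with the block (407 of 11781). With 1 library left out 0 to 4 were higher. The count lower was 1 in the unpaired fit, where 2.89% of all genes were lower, and 0 under median-ratio and 0 under quantile scaling. It was 3 without both libraries numbered 1 (1528 of 11572 over all genes) and 0 to 3 with 1 library left out.

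Of 110 recomputed differences by lane suffix, 96 kept sign and side, 6 became called, 1 lost its call and 7 changed sign. The count of the 10 genes called lower was 2 to 4 with 1 library left out. *Ltb* was 0.18 under quantile scaling and *Traf1* -0.0080 under the length correction, and with 1 library left out *Tnfrsf4* ran from -0.22 to 0.29, *Tnfrsf1a* from -0.080 to 0.22 and *Traf1* from -0.13 to 0.32. The cause of these changes was not tested. With no read counts, the depth behind each value and its limit on these differences are unknown.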
